A study of Mus musculus with 6 samples.

Results

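The genes described here are 10 enzymes that hydroxylate collagen inside the cell and crosslink it outside, chosen by name from 16603 genes in the count table: the lysyl oxidases Lox, Loxl1, Loxl2 and Loxl3, the lysyl hydroxylases Plod1, Plod2 and Plod3, and the prolyl 4-hydroxylase alpha subunits P4ha1, P4ha2 and P4ha3. The rule names the genes and uses no measured value, though they were picked with earlier results of these data known. They were measured by RNA-seq in 6 libraries of mouse liver, 3 labelled Mdr2-knockout (Mdr2-/-) and 3 labelled wild-type. Mdr2, gene symbol Abcb4, is the hepatocyte transporter that passes phosphatidylcholine into bile, and mice without it are a model of chronic bile duct injury with scarring around the ducts. The labels give liver and genotype for each library, and are silent on age, sex, strain, the targeted allele and whether the libraries of a group came from different animals, so the p-values below measure the spread between libraries, which may be technical in part. The count table names its columns by letter; M was matched to the titles of the Mdr2-/- samples and N, which no label spells out, was taken as wild-type by elimination, so every direction rests on that reading.

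Collagen chains are modified while they are still being folded in the endoplasmic reticulum. Prolyl 4-hydroxylases, tetramers of 2 alpha subunits with 2 copies of the protein disulfide isomerase P4hb, form the hydroxyproline that keeps the triple helix stable, and lysyl hydroxylases form the hydroxylysine that carries sugars and takes part in crosslinks. Both need iron, 2-oxoglutarate and ascorbate. After secretion and trimming, the copper enzymes of the lysyl oxidase family oxidize lysine and hydroxylysine side chains to aldehydes, which then react into the covalent crosslinks that stiffen collagen and elastin fibres; in a scarred liver this makes the matrix harder to degrade.

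The chemistry of these enzymes takes place at metal sites, with copper in the lysyl oxidases and iron in both hydroxylase families, and the coding stretches of these sites are shown because members of a family share them. The stretch of Lox is not shown. They were read from GENCODE M21 transcripts on GRCm38. In the lysyl oxidases the capitals mark 3 histidine codons of the copper site:
Loxl1: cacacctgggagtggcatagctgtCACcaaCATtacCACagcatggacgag
Loxl2: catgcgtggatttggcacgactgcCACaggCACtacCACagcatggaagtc
Loxl3: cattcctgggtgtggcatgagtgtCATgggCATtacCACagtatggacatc
Each of these runs crosses an exon junction. The Loxl1 run lies on the minus strand at chr9:58293708-58294387, that of Loxl2 on the plus strand at chr14:69682310-69689049 and that of Loxl3 on the plus strand at chr6:83049989-83050137, intron included. Loxl1 and Loxl3 were identical at 37 of 51 bases, Loxl2 and Loxl3 at 38, and Loxl1 and Loxl2 at 34.

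In the lysyl hydroxylases the capitals mark the histidine and aspartate codons that open the iron site, whose remaining histidine lies further on:
Plod1: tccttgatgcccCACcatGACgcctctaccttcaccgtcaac
Plod2: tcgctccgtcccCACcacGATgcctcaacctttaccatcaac
Plod3: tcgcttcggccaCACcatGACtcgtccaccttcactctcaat
These lie within single coding exons, at chr4:147913253-147913294 (minus strand) in Plod1, chr9:92606815-92606856 (plus strand) in Plod2 and chr5:136994984-136995025 (plus strand) in Plod3. The same codons of the prolyl 4-hydroxylase alpha subunits are in capitals here:
P4ha1: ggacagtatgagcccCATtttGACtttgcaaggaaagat
P4ha2: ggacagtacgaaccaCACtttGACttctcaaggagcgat
P4ha3: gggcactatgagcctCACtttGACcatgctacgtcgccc
All 3 run across a junction on the plus strand, at chr10:59365310-59367294 in P4ha1, chr11:54125784-54126351 in P4ha2 and chr7:100313333-100314613 in P4ha3, intron included. P4ha1 and P4ha2 matched at 31 of 39 bases and P4ha2 and P4ha3 at 22. Over whole coding sequences the longest exact run shared within a family was 32 bases, between Lox and Loxl1, so reads longer than that could be assigned to 1 member.

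The libraries held 17100393 to 18124467 counts, and 3 counts in a library corresponded to 0.149 to 0.192 CPM (counts divided by the library size after TMM scaling, the trimmed mean of M values, and multiplied by 1e6). No library was a repeat of another: between libraries with the same label the counts gave a chi-square per degree of freedom of 14.0 to 30.0. Abcb4, the gene named by the knockout label, went against that label: it stood at 500 CPM, 513 CPM and 434 CPM in the libraries labelled Mdr2-knockout, against 330 CPM, 369 CPM and 273 CPM in those labelled wild-type (log2 fold change 0.57, SE 0.12; adjusted p = 0.00389, edgeR). The targeted part of the gene is not given, so how many of these reads lie outside it is not known. Whether labels or columns were exchanged between the groups was not tested. Abcb4 thus gives no check of the column match described above, on which every direction rests. Liver identity was plain in all 6 libraries, with Alb, the serum albumin gene, at 49467 ± 848 CPM in the libraries labelled Mdr2-knockout and 85388 ± 4348 CPM in those labelled wild-type (SD, n = 3 each).

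Of the 10 enzymes, 9 passed the low-count filter and were tested with edgeR's quasi-likelihood test, with p-values adjusted over all 12612 tested genes; P4ha3 did not pass. In the libraries labelled Mdr2-knockout, all 4 lysyl oxidases and Plod2 were higher, Plod1 was slightly lower, and Plod3, P4ha1 and P4ha2 did not pass the adjusted p of 0.05. In bulk liver, which holds many cell types, more cells of a type and more RNA per cell cannot be told apart. The calls made 5 of 9 higher, where 20.9% of all tested genes were called higher, and 1 of 9 lower, where 16.3% were called lower. Lox, Loxl1, Loxl2 and Plod2 were at least 2-fold higher, 4 of 9, against 11.1% of all tested genes. The groups did not overlap in 7 of the 9, against 51.3% of tested genes. The median log2 fold change of the 9 was 0.81, beside 0.01 over all tested genes.

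**Figure D1:**
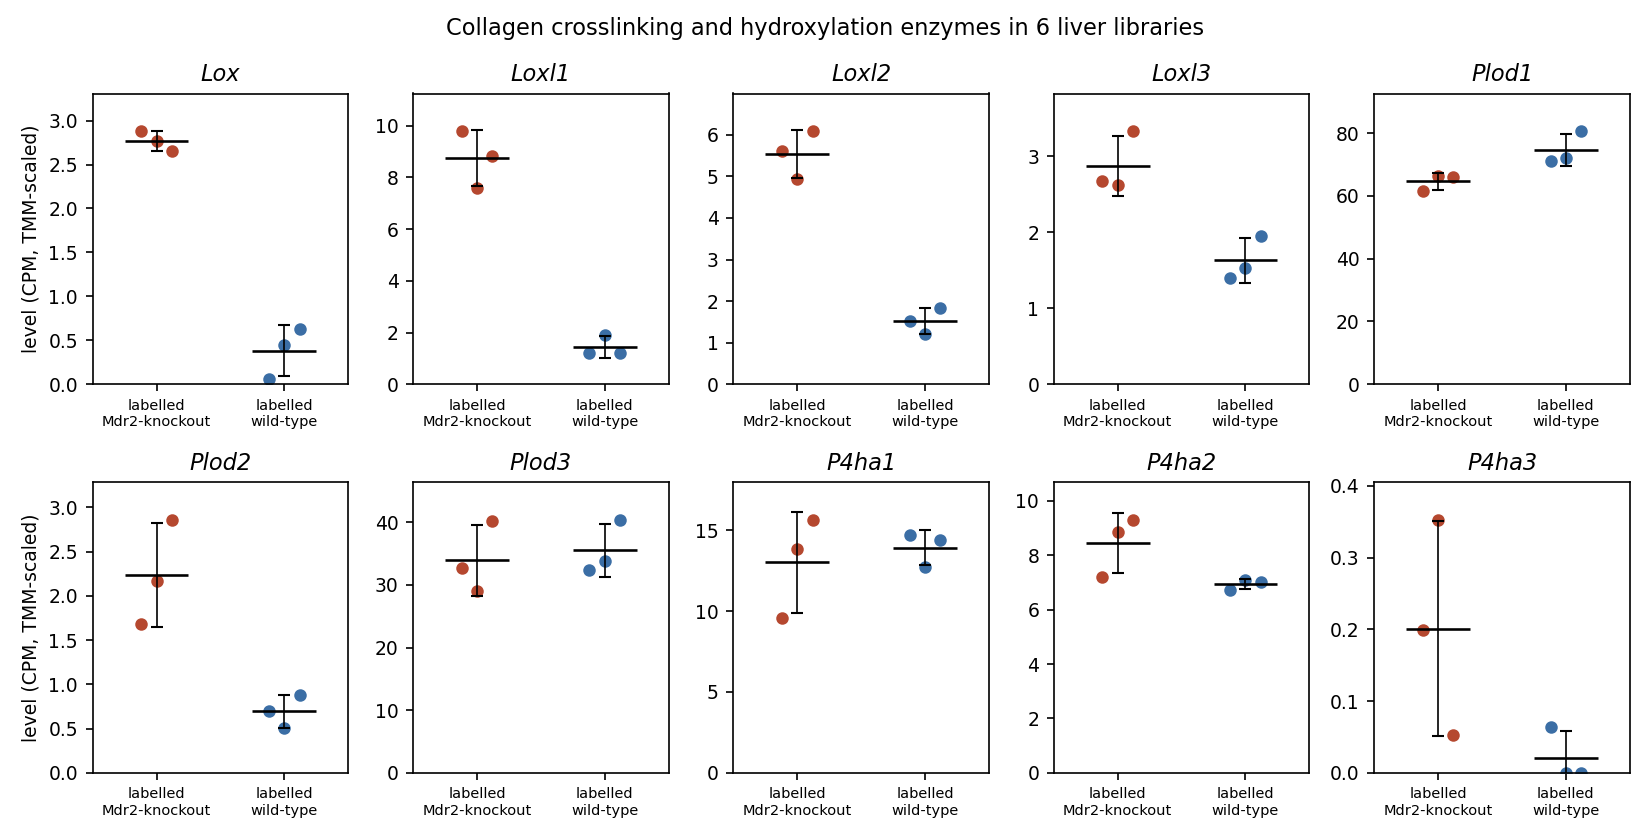
Level of each of the 10 enzymes (CPM, TMM-scaled, linear axis from 0) in the 3 libraries labelled Mdr2-knockout and the 3 labelled wild-type; points are libraries, bars the mean and SD. The groups stand apart for the lysyl oxidases and Plod2, with Loxl1 at 7.60 to 9.77 CPM in the libraries labelled Mdr2-knockout and 1.20 to 1.92 CPM in those labelled wild-type, and overlap for Plod3 and P4ha1.

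Lox, the founding lysyl oxidase, acts on fibrillar collagen and on elastin; its gene lies on the minus strand of chromosome 18 (52516067 to 52529867, GRCm38). It had 2.88, 2.77 and 2.65 CPM in the libraries labelled Mdr2-knockout, and 0.0636, 0.447 and 0.631 CPM in those labelled wild-type. The first group lay within a narrow band and well above the second, in which the first library held a single read. The counts behind these values were 58, 55 and 51 in the libraries labelled Mdr2-knockout, against 1, 7 and 10 in those labelled wild-type. The log2 fold change was 2.84 (SE 0.44, 95% interval 1.87 to 3.81; adjusted p = 0.000893, edgeR), a higher value than that of 98.3% of tested genes, and it rests on a low wild-type level. Without wild-type replicate 1, the library with 1 read, the log2 fold change was 2.33 and the call held (adjusted p = 0.00115, edgeR).

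Loxl1 (chr9:58287738-58313186, minus strand), best known for the upkeep of elastic fibres, had the highest level of the 4 in the libraries labelled Mdr2-knockout. Its level was 9.77, 7.60 and 8.83 CPM in the libraries labelled Mdr2-knockout and 1.21, 1.92 and 1.20 CPM in those labelled wild-type. The lowest value of the first group was several times the highest of the second. The log2 fold change was 2.60 (SE 0.22; adjusted p = 2.46e-05, edgeR), a fold of 6.04.

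Loxl2 (chr14:69609068-69695834, plus strand) crosslinks the collagen IV of basement membranes as well as fibrillar collagen. Its libraries gave 5.61, 4.93 and 6.08 CPM where labelled Mdr2-knockout, against 1.53, 1.21 and 1.83 CPM where labelled wild-type, with no overlap. The fold was 3.62 (log2 fold change 1.86, SE 0.22; adjusted p = 0.00017, edgeR). Lox, Loxl1 and Loxl2 passed the test in all 16 alternative analyses. Exons of Gm27177, an antisense gene that is not in the count table, cover 301 of the 5405 exonic bases of Loxl2. In Lox the overlap with such a gene, AC161119.1, is 30 of 4778 bases.

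Loxl3 (chr6:83034173-83052562, plus strand), which in mice is needed for palate and spine development, changed less. Its level was 2.68, 2.62 and 3.33 CPM in the libraries labelled Mdr2-knockout and 1.40, 1.53 and 1.96 CPM in those labelled wild-type, again without overlap. The log2 fold change was 0.81 (SE 0.24; adjusted p = 0.0242, edgeR). This call was lost without Mdr2-knockout replicate 3 (adjusted p = 0.0812, edgeR), without wild-type replicate 1 (0.0734) or without wild-type replicate 2 (0.0723). Of its 4603 exonic bases, 535 are shared with exons of Htra2, a mitochondrial protease gene on the other strand. The strand setting of the counting is not given in the sources used here, so reads of such overlaps cannot be told apart. Htra2 itself stood at 13.0 ± 0.348 CPM in the libraries labelled Mdr2-knockout and 13.8 ± 0.866 CPM in those labelled wild-type (SD, n = 3 each; adjusted p = 0.554, edgeR).

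The deposited FPKM values are per length and give the make-up of the family, though the gene lengths behind them are not given. Shares and orders of genes in FPKM rest on those lengths. Summed over the 4 genes, lysyl oxidase FPKM was 5.75, 4.80 and 5.64 in the libraries labelled Mdr2-knockout, against 0.901, 1.12 and 1.16 in those labelled wild-type. Loxl1 made up 53.6 ± 2.60% of the sum in the libraries labelled Mdr2-knockout and 36.8 ± 8.94% in those labelled wild-type. Loxl3 made up 14.5 ± 1.69% in the libraries labelled Mdr2-knockout and 34.1 ± 3.72% in those labelled wild-type (SD, n = 3 each). Loxl4, a further lysyl oxidase outside the 10 genes, had 2.01, 1.38 and 1.03 FPKM in the libraries labelled Mdr2-knockout and 1.09, 0.719 and 0.708 FPKM in those labelled wild-type, where it exceeded each of the 4. In an alternative chosen after seeing the data, adding it gave sums of 6.87 ± 0.815 FPKM in the libraries labelled Mdr2-knockout and 1.90 ± 0.0813 FPKM in those labelled wild-type. The share of Loxl1 was then 42.1 ± 1.78% in the libraries labelled Mdr2-knockout and 20.6 ± 6.24% in those labelled wild-type, again without overlap. That of Loxl3 was 11.5 ± 2.08% in the libraries labelled Mdr2-knockout and 19.1 ± 3.70% in those labelled wild-type. Loxl4 itself made up 21.2 ± 5.32% in the libraries labelled Mdr2-knockout and 43.9 ± 9.37% in those labelled wild-type. Loxl1 and Loxl3 overlapped in FPKM in the libraries labelled wild-type (0.323 to 0.510 and 0.316 to 0.433), and in those labelled Mdr2-knockout they were far apart (2.50 to 3.26 and 0.706 to 0.906).

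**Figure D2:**
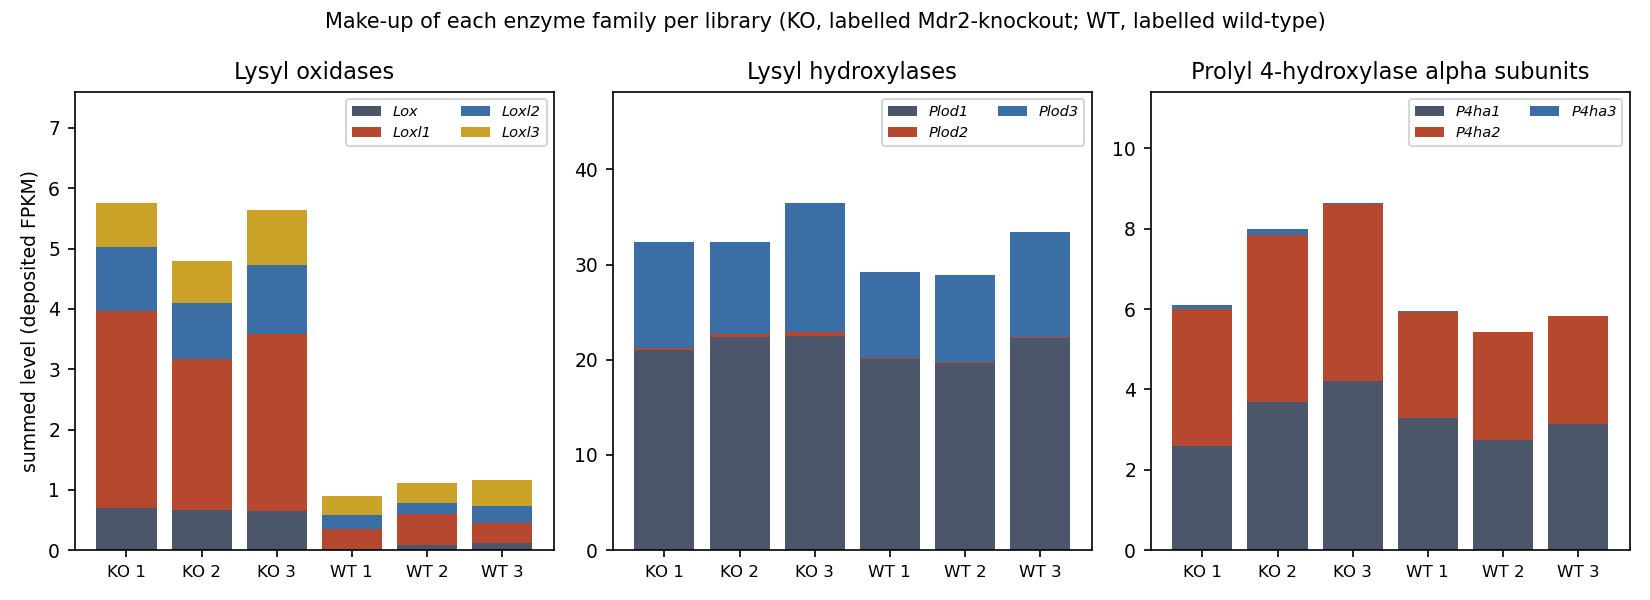
Summed FPKM (linear axis, per-length level as deposited) of each enzyme family in each library, the 3 labelled Mdr2-knockout (KO) left of the 3 labelled wild-type (WT), with colours for the genes. The lysyl oxidase bars reach 4.80 to 5.75 in KO and 0.901 to 1.16 in WT, while the lysyl hydroxylase bars overlap, at 32.4 to 36.5 in KO and 28.9 to 33.5 in WT.

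Among the lysyl hydroxylases, Plod2 was the member that rose. Plod2 (chr9:92542223-92608428, plus strand) hydroxylates lysines in the telopeptides, the short ends of collagen, which sets the kind of crosslink that later forms. It had 1.69, 2.17 and 2.86 CPM in the libraries labelled Mdr2-knockout and 0.699, 0.511 and 0.883 CPM in those labelled wild-type. Every library of the first group exceeded every library of the second. The log2 fold change was 1.67 (SE 0.34, 95% interval 0.92 to 2.41; adjusted p = 0.00377, edgeR), and all 15 alternatives that kept the gene called it. Exons of Gm38391, a gene model on the other strand that is not in the count table, cover 346 of its 5392 exonic bases.

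Plod1 (chr4:147909753-147936767, minus strand), which hydroxylates lysines within the helix, was the only tested member that was called lower, and only in some of the analyses. It stood at 61.6, 66.4 and 66.1 CPM in the libraries labelled Mdr2-knockout, against 71.1, 72.0 and 80.5 CPM in those labelled wild-type. The groups did not overlap, and the difference was small (log2 fold change -0.20, SE 0.07; adjusted p = 0.0492, edgeR). It passed in 4 of 16 alternatives, was lost without any 1 of 5 libraries, all but wild-type replicate 1 (adjusted p between 0.0688 and 0.141, edgeR), and took the other sign when libraries were scaled by total counts (log2 fold change 0.089; adjusted p = 0.332, edgeR).

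Plod3 (chr5:136987019-136996648, plus strand), a lysyl hydroxylase that also adds glucose and galactose to hydroxylysine, had 32.7, 29.0 and 40.2 CPM in the libraries labelled Mdr2-knockout and 32.4, 33.8 and 40.4 CPM in those labelled wild-type. The groups overlapped throughout (log2 fold change -0.07, SE 0.13, 95% interval -0.36 to 0.23; adjusted p = 0.722, edgeR). Exons of Znhit1 on the other strand cover 529 of its 4519 exonic bases. Znhit1 had 21.8 ± 3.76 CPM in the libraries labelled Mdr2-knockout and 23.6 ± 1.52 CPM in those labelled wild-type (SD, n = 3 each).

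Per length, Plod1 and Plod3 were the most abundant of the 10 enzymes, with 22.0 ± 0.814 and 11.5 ± 1.96 FPKM in the libraries labelled Mdr2-knockout, and 20.7 ± 1.39 and 9.78 ± 1.13 FPKM in those labelled wild-type. Plod2 made up 0.770 ± 0.153% of lysyl hydroxylase FPKM in the libraries labelled Mdr2-knockout and 0.217 ± 0.0448% in those labelled wild-type (SD, n = 3 each). The family sum, at 33.7 ± 2.36 FPKM in the libraries labelled Mdr2-knockout and 30.5 ± 2.53 FPKM in those labelled wild-type, overlapped between the groups.

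The prolyl 4-hydroxylase alpha subunits did not pass the test. P4ha1 (chr10:59323296-59373304, plus strand), the main alpha subunit of most cells, had 9.57, 13.8 and 15.6 CPM in the libraries labelled Mdr2-knockout, against 14.7, 12.7 and 14.4 CPM in those labelled wild-type. The first library labelled Mdr2-knockout lay below all others and the third above them (log2 fold change -0.10, SE 0.17, 95% interval -0.47 to 0.28; adjusted p = 0.678, edgeR).

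P4ha2 (chr11:54100095-54131665, plus strand), an alpha subunit with a narrower range of tissues, had 7.19, 8.86 and 9.30 CPM in the libraries labelled Mdr2-knockout and 6.74, 7.09 and 7.0 CPM in those labelled wild-type. The groups lay side by side without overlap, and the test was not passed (log2 fold change 0.28, SE 0.14, 95% interval -0.03 to 0.60; adjusted p = 0.141, edgeR). Scaled by total counts, the log2 fold change was 0.58 and the gene was called (adjusted p = 0.0068, edgeR).

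P4ha3 (chr7:100285520-100319699, plus strand), the least abundant alpha subunit, had 4, 7 and 1 counts in the libraries labelled Mdr2-knockout, against 1, 0 and 0 in those labelled wild-type. The sums of 12 and 1 counts give a ratio of 9.56 per scaled library size, with an exact 95% interval of 1.42 to 409 that covers counting error only. The last library labelled Mdr2-knockout held as many reads as the first labelled wild-type, so the groups overlapped.

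P4hb, the beta subunit that all 3 alpha subunits share, is named here outside the rule for named genes. It stood at 1161, 1038 and 1137 CPM in the libraries labelled Mdr2-knockout and 1192, 1168 and 1133 CPM in those labelled wild-type, a change of -0.07 on the log2 scale that did not pass the test (SE 0.08; adjusted p = 0.558, edgeR), and of 0.23 with total-count scaling, where it was called (adjusted p = 0.047, edgeR). Summed FPKM of the alpha subunits was 6.09, 8.0 and 8.64 in the libraries labelled Mdr2-knockout, against 5.95, 5.43 and 5.84 in those labelled wild-type. The lowest value of the first group was just above the highest of the second.

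**Figure D3:**
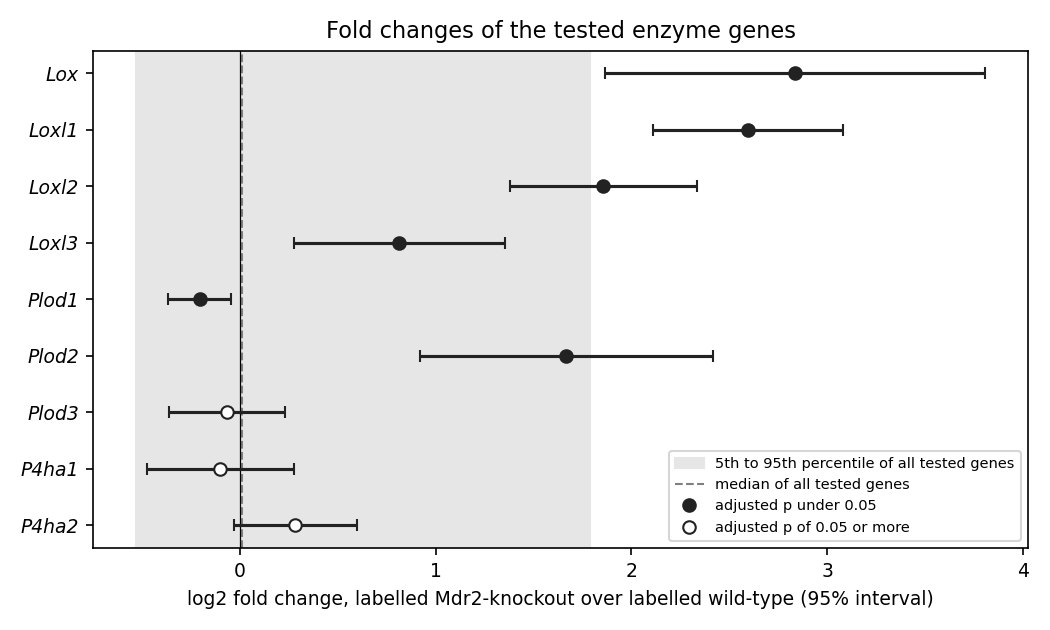
Log2 fold change of the 9 tested enzymes, libraries labelled Mdr2-knockout over those labelled wild-type, with 95% intervals computed from the SE. Points are filled where the adjusted p is under 0.05 (edgeR). A grey band marks the 5th to 95th percentile of all tested genes (-0.53 to 1.79). Lox, Loxl1, Loxl2, Loxl3 and Plod2 lie to the higher side, Plod1 at -0.20, and the intervals of Plod3, P4ha1 and P4ha2 include 0.

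Orders of genes in FPKM rest on the gene lengths behind the deposited values. In FPKM the order of the members in the libraries labelled Mdr2-knockout was Plod1, Plod3, P4ha2, P4ha1, Loxl1, Loxl2, Loxl3, Lox, Plod2 and P4ha3. Of the neighbours in that order, P4ha2 and P4ha1 overlapped (3.41 to 4.40 and 2.59 to 4.22 FPKM), as did P4ha1 and Loxl1 (2.59 to 4.22 and 2.50 to 3.26 FPKM). In the libraries labelled wild-type the order was Plod1, Plod3, P4ha1, P4ha2, Loxl1, Loxl3, Loxl2, Lox, Plod2 and P4ha3. There the neighbours that overlapped were Loxl1 and Loxl3, given above, and Lox and Plod2 (0.0128 to 0.125 and 0.0481 to 0.0842 FPKM). Lox had fewer counts than Plod2 in each library labelled wild-type (1, 7 and 10 against 11, 8 and 14).

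How libraries are scaled bears on the size of each change in these data, and on the direction of the small ones. Total counts in place of TMM factors raised the log2 fold change of the median gene by 0.29, and the share of calls that were higher in the libraries labelled Mdr2-knockout was 94.7% with total counts against 56.2% with TMM. With total counts, 47.1% of tested genes were called higher and 2.62% lower. Because this moves all genes by nearly the same amount, it leaves the order of the enzymes as it is; Plod1, Plod3 and P4ha1, just below 0 with TMM, changed sign.

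**Figure D4:**
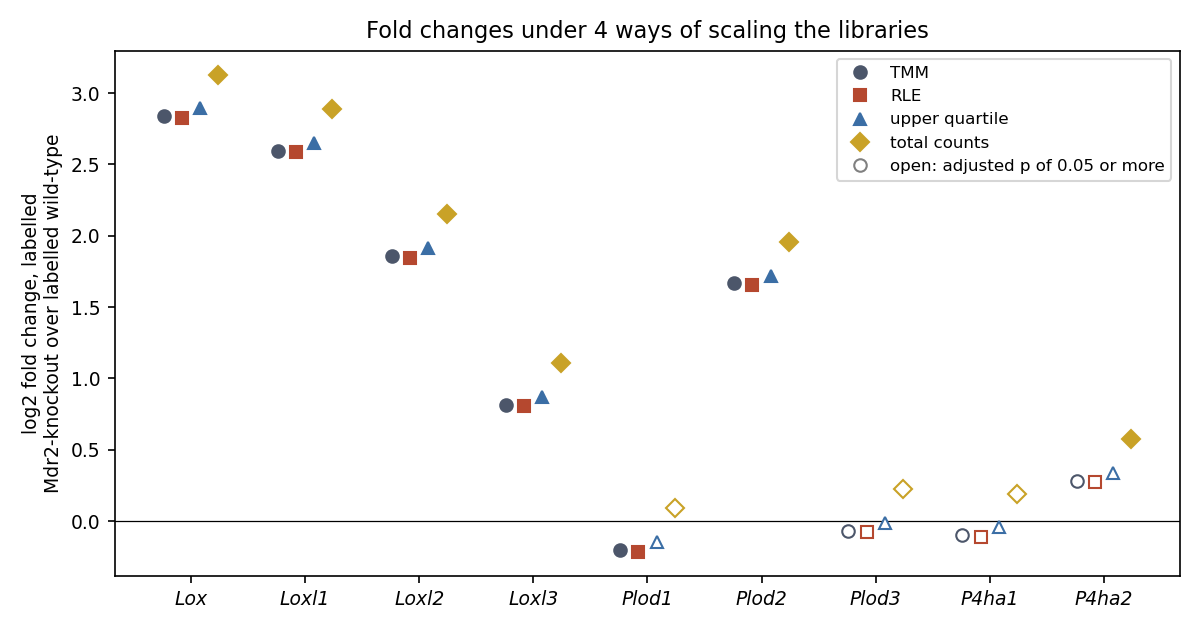
Log2 fold change of the 9 tested enzymes, libraries labelled Mdr2-knockout over those labelled wild-type, under TMM, RLE, upper-quartile and total-count scaling, with open symbols where the adjusted p is 0.05 or more. Lox, Loxl1, Loxl2, Loxl3 and Plod2 are filled under all 4, P4ha2 under total counts only, and Plod1 under TMM and RLE only.

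Ratios of FPKM within a library are free of the library's scale. For 7 such ratios the exact two-sided permutation test over the 6 libraries was used, in which 3 against 3 cannot give a p below 0.1. The log2 ratio of Plod2 to Plod1 was -6.73, -6.48 and -6.07 in the libraries labelled Mdr2-knockout and -8.21, -8.68 and -8.05 in those labelled wild-type, a difference of 1.89 with no overlap (exact permutation p = 0.1, adjusted over the 7 ratios 0.14). The log2 ratio of P4ha1 to P4ha2 was -0.21 ± 0.17 in the libraries labelled Mdr2-knockout and 0.19 ± 0.14 in those labelled wild-type (difference -0.40; exact permutation p = 0.1, adjusted 0.14). By deposited FPKM, P4ha2 was thus the more abundant alpha subunit in each library labelled Mdr2-knockout, and P4ha1 in each labelled wild-type. The margin was small in the third library labelled Mdr2-knockout (log2 ratio -0.06) and the second labelled wild-type (0.03). In counts P4ha1 was ahead in every library (193, 275 and 301 against 145, 176 and 179 where labelled Mdr2-knockout), and P4ha2 has more exonic bases (6239 against 4114). Their FPKM order thus rests on the gene lengths behind the deposited values. The ratios of Loxl2 to Loxl1 (difference -0.75; exact permutation p = 0.3, adjusted 0.35) and of Loxl1 to Lox (difference -0.77; exact permutation p = 0.7, adjusted 0.7), overlapped between the groups.

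All 8 tested collagen and elastin genes were higher in the libraries labelled Mdr2-knockout, with a median log2 fold change of 2.31. Over all tested genes 20.9% were called higher, and 47.1% with total-count scaling. Col1a1, a chain of type I collagen, averaged 61.0 ± 6.48 CPM in the libraries labelled Mdr2-knockout and 7.48 ± 2.29 CPM in those labelled wild-type (log2 fold change 3.03, SE 0.20; adjusted p = 7.42e-05, edgeR). Eln, which encodes the elastin that lysyl oxidases crosslink, averaged 19.1 ± 1.20 CPM and 3.47 ± 0.0240 CPM in the libraries labelled Mdr2-knockout and wild-type (log2 fold change 2.46; SD, n = 3 each). Col5a2, Col1a2, Col5a1 and Col4a2 had log2 fold changes of 2.80, 2.16, 1.27 and 1.00.

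Set against Col1a1, Col1a2 and Col3a1 summed, the log2 FPKM ratio of the lysyl oxidases was -3.26, -3.0 and -3.08 in the libraries labelled Mdr2-knockout and -2.67, -1.95 and -2.87 in those labelled wild-type. The groups did not overlap, and the difference was -0.61 (exact permutation p = 0.1, adjusted 0.14). Its size depends on the second library labelled wild-type, without which it was -0.34, and on the genes summed: with Loxl4 it was -1.12 (exact permutation p = 0.1). For the lysyl hydroxylases the log2 ratio was -0.46 ± 0.27 in the libraries labelled Mdr2-knockout and 2.36 ± 0.38 in those labelled wild-type (difference -2.82). For the prolyl 4-hydroxylase alpha subunits it was -2.63 ± 0.48 and -0.05 ± 0.44 in the libraries labelled Mdr2-knockout and wild-type (difference -2.58; SD, n = 3 each). Both had an exact permutation p of 0.1, adjusted 0.14. By these ratios each enzyme family was lower per unit of these collagen transcripts in the libraries labelled Mdr2-knockout, at a p that is the smallest this design allows. The 3 ratios share 1 denominator, 47.0 ± 8.25 FPKM in the libraries labelled Mdr2-knockout and 6.18 ± 2.11 FPKM in those labelled wild-type (SD, n = 3 each). The lysyl hydroxylase sum itself overlapped between the groups. Whether enzyme and collagen transcripts came from the same cells was not tested.

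**Figure D5:**
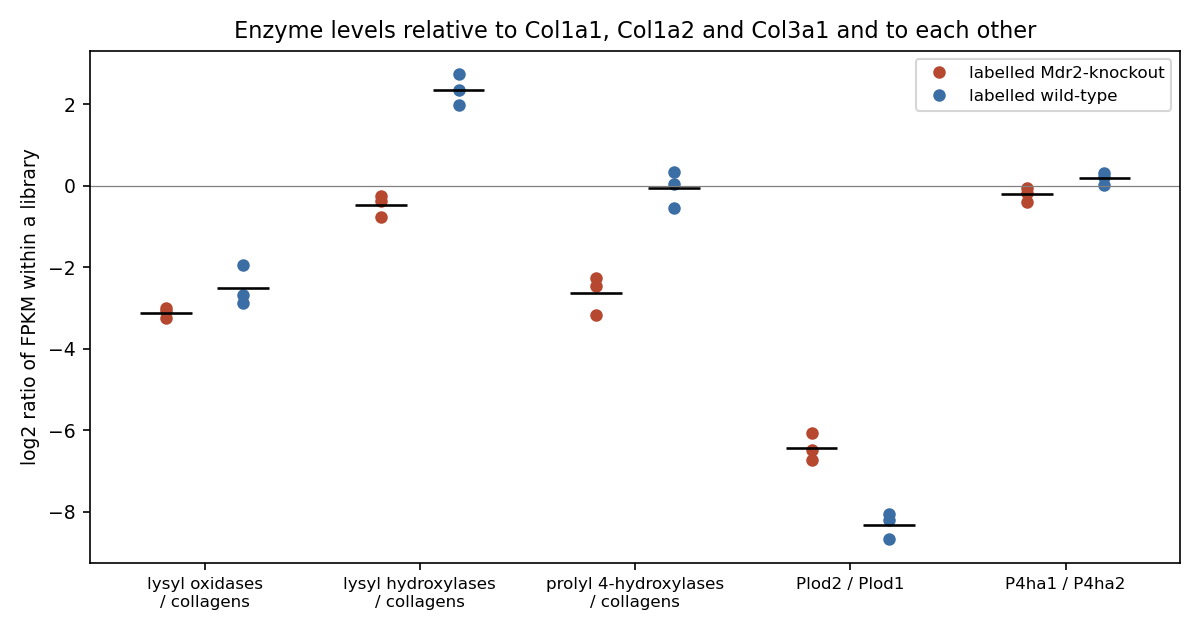
Log2 ratios of FPKM within each library (points; bars are group means), the 3 libraries labelled Mdr2-knockout left of the 3 labelled wild-type. Plod2 to Plod1 is higher in the libraries labelled Mdr2-knockout, by 1.89, and the 3 family sums relative to Col1a1, Col1a2 and Col3a1 are lower, by 0.61 to 2.82 log2 units.

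The partners of these enzymes along the collagen route were taken from 3 lists with 31 genes, of which 29 were tested. Of these, 14 were higher, 2 lower and 13 did not pass, with a median log2 fold change of 0.53. Over all tested genes 20.9% were called higher and 16.3% lower, and with total-count scaling 47.1% and 2.62%. The counts of calls in this and the later lists stand beside these shares. In the list of the endoplasmic reticulum 6 of 16 were higher and 1 lower, with a median of 0.44; with total-count scaling 10 were higher and none lower, and 19 of the 29 partners were higher. Without Mdr2-knockout replicate 2 or wild-type replicate 1, 2 of the 16 were lower. Serpinh1, the collagen chaperone HSP47, had 19.5, 14.9 and 18.03 CPM in the libraries labelled Mdr2-knockout and 6.93, 5.24 and 8.52 CPM in those labelled wild-type (log2 fold change 1.34, SE 0.17; adjusted p = 0.000341, edgeR). Fkbp10, a prolyl isomerase that works on the collagen helix and assists telopeptide lysyl hydroxylation, had a log2 fold change of 1.85 (SE 0.27; adjusted p = 0.000689, edgeR). Crtap, a member of the prolyl 3-hydroxylase complex, P3h3, a partner of Plod1 in lysine hydroxylation in mice, and Colgalt1, which adds galactose to hydroxylysine, had log2 fold changes of 0.80, 1.10 and 0.38. The sixth was Creb3l1, a transcription factor that acts on collagen genes, at 1.16, a call lost without Mdr2-knockout replicate 1 or wild-type replicate 2 (adjusted p up to 0.0602, edgeR). Mia3, which helps to load bulky collagen into transport vesicles, was the lower one, at 316 ± 6.33 CPM in the libraries labelled Mdr2-knockout and 432 ± 15.0 CPM in those labelled wild-type (log2 fold change -0.45), a call lost with total-count scaling.

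Of 8 propeptide proteinases and enhancers, 6 were tested. Adamts2, which removes the amino-terminal propeptide, and Pcolce, which speeds removal of the carboxy-terminal one, were higher (log2 fold changes 1.53 and 1.91). Bmp1, the carboxy-terminal proteinase that also activates the Lox proenzyme, was lower: 139 ± 8.08 CPM in the libraries labelled Mdr2-knockout and 209 ± 11.9 CPM in those labelled wild-type (log2 fold change -0.59, SE 0.08; adjusted p = 0.00038, edgeR), a call kept under each alternative that was run. The other 3 did not pass, and the median of the list was 0.19.

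Of 7 other crosslinking and fibre assembly genes, 6 were higher, with a median of 0.87. Sparc, which binds collagen, had 88.9, 73.2 and 86.0 CPM in the libraries labelled Mdr2-knockout and 29.6, 32.7 and 37.9 CPM in those labelled wild-type (log2 fold change 1.31, SE 0.11; adjusted p = 2.1e-05, edgeR). Fmod, a small proteoglycan that guides lysyl oxidase on collagen, and Efemp2, the fibulin that tethers Lox to elastin, had log2 fold changes of 1.70 and 1.40. Tgm2, a transglutaminase that joins glutamine to lysine, Pxdn, the peroxidase that crosslinks collagen IV, and Fbln5, a fibulin that binds Loxl1, had 0.68, 0.46 and 0.87. The call of Fbln5 was lost without any 1 of the libraries but Mdr2-knockout replicate 2 (adjusted p between 0.0545 and 0.105, edgeR), and that of Pxdn without wild-type replicate 1 (0.0512). The remaining gene, Loxl4, the fifth lysyl oxidase, stood at 10.0, 6.95 and 5.14 CPM in the libraries labelled Mdr2-knockout and 6.55, 4.47 and 4.35 CPM in those labelled wild-type, which overlap (log2 fold change 0.53, SE 0.26; adjusted p = 0.149, edgeR).

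Genes that supply the cofactors gave 1 higher and 3 lower of 8 (20.9% and 16.3% of all tested genes), with a median of 0.13. Gulo, the last enzyme of ascorbate synthesis, averaged 297 ± 29.2 CPM in the libraries labelled Mdr2-knockout and 428 ± 11.6 CPM in those labelled wild-type (log2 fold change -0.52; SD, n = 3 each). Slc31a1, the copper importer, had -0.30, and Rgn, an earlier enzyme of ascorbate synthesis, -0.43. Atp7b, the copper pump of hepatocytes, was higher at 0.35. Leaving out 1 library ended the call of Rgn in 4 of 6 cases (Mdr2-knockout replicates 2 and 3, wild-type replicates 1 and 3; adjusted p up to 0.138, edgeR) and that of Atp7b in 3 (Mdr2-knockout replicate 1, wild-type replicates 2 and 3; up to 0.0796). With total-count scaling 5 of these genes were called higher, beside 47.1% of all tested genes, and none of the 3 lower calls remained. Leaving out 1 library gave 0 to 2 higher. General folding genes of the endoplasmic reticulum gave no call among 10, with log2 fold changes between -0.22 and 0.06, 4 higher calls with total-count scaling and 2 lower calls without wild-type replicate 3.

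Genes known as targets of hypoxia-inducible factors, which also act on several of the hydroxylases described here, gave 1 higher and 3 lower of 17 tested, with a median of -0.18. Of all tested genes 20.9% were called higher and 16.3% lower, so the lower calls came at about the share of all genes. Ldha, a glycolytic enzyme, averaged 501 ± 52.2 CPM in the libraries labelled Mdr2-knockout and 860 ± 68.8 CPM in those labelled wild-type (log2 fold change -0.78; SD, n = 3 each). Vegfa, the endothelial growth factor, and Bnip3, a mitophagy gene, had -0.50 and -0.56, and the higher one was Pfkfb4, a regulator of glycolysis, at 0.95, a call lost without any 1 of the libraries but Mdr2-knockout replicate 2 (adjusted p between 0.0563 and 0.161, edgeR). With total-count scaling 3 were called higher and 1 lower, beside 47.1% and 2.62% of all tested genes. Lower calls were 6 without wild-type replicate 3 and with DESeq2, and 5 with limma-voom and the replicate block. Other 2-oxoglutarate hydroxylases, which use the same chemistry on other substrates, gave 2 higher and 6 lower of 11, with a median of -0.30. Bbox1, the last enzyme of carnitine synthesis, Hif1an, an asparagine hydroxylase of hypoxia-inducible factors, and Ogfod1, a ribosomal prolyl hydroxylase, had log2 fold changes of -0.60, -0.39 and -0.39. The higher ones were Asph, at 0.35, and Tmlhe, at 0.40, lost without wild-type replicate 1 (adjusted p = 0.055, edgeR). With total-count scaling the counts turned round, to 3 higher and 1 lower. Creb3l1, Loxl4, Rgn, Pfkfb4, Asph and Tmlhe were named after their values were seen.

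Markers of several cell types also differed between the groups, some higher and some lower. Of portal fibroblast and mesothelial markers, 5 of 5 tested were higher (8 listed), where 20.9% of all tested genes were called higher. With at least 50 counts in 3 libraries, 3 of these markers were called higher. Their summed level was 34.8 to 48.2 CPM in the libraries labelled Mdr2-knockout and 9.77 to 10.2 CPM in those labelled wild-type. Of bile duct cell markers, 6 of 6 were higher, at 49.7 to 53.0 CPM and 10.6 to 12.6 CPM in the libraries labelled Mdr2-knockout and wild-type. Cftr was at 0 in 2 libraries labelled wild-type, and Cldn4, Upk1b and Pi16 in 1 each. The markers Msln, Krt7, Cftr and Cldn4 had fewer than 10 counts in each library labelled wild-type. They passed the low-count filter only through the group in which they were high, so the counts of tested markers lean to the higher side.

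Stellate cell and fibroblast markers were higher in 4 of 10, and in 7 of 10 without wild-type replicate 3. Over all tested genes 20.9% were called higher and 16.3% lower, beside each count of markers here. Among the 4 were Pdgfra (log2 fold change 1.70) and Pdgfrb (1.53), receptors of platelet-derived growth factor. The sums of the stellate cell and fibroblast markers overlapped: 502 to 595 CPM in the libraries labelled Mdr2-knockout and 334 to 519 CPM in those labelled wild-type. Contractile markers gave no call among 3 tested (1 without wild-type replicate 2), with sums of 11.3 to 19.9 CPM in the libraries labelled Mdr2-knockout and 4.64 to 21.01 CPM in those labelled wild-type, and Cnn1 and Actg2 at 0 in 1 library labelled wild-type each. Macrophage markers were higher in 3 of 5, and in 5 without wild-type replicate 3 (432 to 467 CPM and 179 to 314 CPM in the libraries labelled Mdr2-knockout and wild-type). Endothelial markers gave 2 higher and 1 lower of 5; 0 were higher without Mdr2-knockout replicate 1 or wild-type replicate 2, and 1 without Mdr2-knockout replicate 3 or wild-type replicate 1. Their sums were 180 to 193 CPM in the libraries labelled Mdr2-knockout and 162 to 191 CPM in those labelled wild-type. Hepatocyte markers gave 4 lower and 1 higher of 6, with sums of 71243 to 75483 CPM in the libraries labelled Mdr2-knockout and 107643 to 118127 CPM in those labelled wild-type. Most of these sums was Alb. With total-count scaling, hepatocyte markers gave 2 lower and 2 higher, and endothelial markers 4 higher and 0 lower. Stellate cell and fibroblast markers then gave 6 higher and macrophage markers 4. Over all tested genes that scaling called 47.1% higher and 2.62% lower. The part of these cell types in the levels of the enzymes was not tested.

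The genes whose level over the 6 libraries most resembled the mean of the 9 tested enzymes, each scaled to its own mean and SD on the log2 CPM scale, were Prdm11 (Pearson r = 0.994), Tlr8 (0.992), Dok2 (0.989), Hccs (0.988) and Hs3st3a1 (0.985), among 11803 genes with a mean of at least 1 CPM. The enzyme mean was -0.01, 0.36 and 0.92 SD in the libraries labelled Mdr2-knockout and -0.68, -0.57 and -0.02 SD in those labelled wild-type. The third library of each group was the highest of its group, and the points share library and depth, so this is a description of 6 libraries.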

How the data were processed

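Whole-number read counts per gene symbol, and FPKM of those genes, were deposited by the authors. Per the submitters' processing notes the tools included HISAT2, Bowtie2, Trimmomatic, SAMtools, StringTie, HTSeq, Cufflinks and DESeq, with build mm10. Not given in the sources used here are the role and version of each tool, the strand setting, the gene annotation and the gene lengths behind the FPKM. Within a gene, the deposited FPKM are proportional to the deposited counts, scaled by the library total, and are thus no second measurement. M columns were matched to the Mdr2-/- titles, N columns to wild-type by elimination, and 0 columns were left without a sample.

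The count test was the quasi-likelihood test of edgeR 4.0.16 (R 4.3.3): filterByExpr (minimum count 10, minimum total 15), TMM factors, robust quasi-likelihood fit with group as the only term, and Benjamini-Hochberg adjustment over 12612 genes at 0.05. Log2 fold changes are libraries labelled Mdr2-knockout over those labelled wild-type; SE come from the F statistic. Ratios of FPKM were tested by exact permutation, and the fit was tested on simulated counts. Intervals of log2 fold changes were computed from these SE with a t distribution on the degrees of freedom of the edgeR fit. They are approximate and include the spread between libraries. The interval of the P4ha3 count ratio and the floor of 3 counts cover counting error only. The labels do not say that a replicate number marks a shared animal or day, so the main fit has no block.

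The genes named are the 10 enzymes, Abcb4, up to 6 tested genes with the smallest p per list, and the 5 most alike; others are said to lie outside this rule. The enzymes and lists were chosen with earlier results of these data known. Alternatives were total-count, RLE and upper-quartile scaling, limma-voom (limma 3.58.1), DESeq2 1.42.0, limma on log2(FPKM + 0.1) and log2(FPKM + 1), no filter, at least 50 counts in 3 libraries, a replicate block, and leaving out each library.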

Additional observations from a re-analysis of the deposited data

How the results depend on the processing

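The calls of Lox, Loxl1 and Loxl2 were kept in 16 of 16 alternatives and that of Plod2 in 15 of 15; with at least 50 counts in 3 libraries Plod2 was not tested. The number of enzymes called higher, 5 (beside 20.9% of all tested genes), ran from 4 to 6. It was 6 with total-count scaling, where 47.1% of all tested genes were called higher, and on both FPKM scales. It was 4 with at least 50 counts in 3 libraries, where Plod2 was not tested. Leaving out Mdr2-knockout replicate 3, wild-type replicate 1 or wild-type replicate 2 also gave 4. The call of Plod1 as lower, 1 enzyme, fell to 0 with upper-quartile scaling, total-count scaling, DESeq2, limma-voom, limma on log2(FPKM + 0.1), limma on log2(FPKM + 1) and at least 50 counts in 3 libraries, and ran from 0 to 1 when single libraries were left out. Partner genes called lower, 2, came to 1 with total-count scaling and on both FPKM scales. Over all genes, 2634 higher and 2051 lower calls became 5943 and 330 with total counts. With total-count scaling, log2(FPKM + 0.1) and log2(FPKM + 1), in that order, the sign turned to give 0.089, 0.090 and 0.086 for Plod1, 0.23, 0.22 and 0.20 for Plod3, 0.19, 0.16 and 0.13 for P4ha1, 0.23, 0.23 and 0.23 for P4hb, 0.21, 0.21 and 0.19 for Htra2 and 0.18, 0.17 and 0.16 for Znhit1 (log2 fold change); these values share total-count scaling. When single libraries were left out it turned for Plod3 (-0.21 to 0.031; higher without Mdr2-knockout replicate 2 or wild-type replicate 3), Znhit1 (-0.22 to 0.015; without Mdr2-knockout replicate 2), P4ha1 (-0.25 to 0.079; without Mdr2-knockout replicate 1) and the log2 ratio of Loxl1 to Lox (-1.52 to 0.14; without wild-type replicate 1). The log2 ratio of lysyl oxidases to collagens, -0.61, ran from -0.80 to -0.34 in the same way. The low counts of Lox, Plod2 and P4ha3 limit their folds. The replicate block gave 4568 calls over all genes against 4685 without it, and left 5 enzymes higher. Same-numbered libraries had correlations of -0.08 to 0.08 between their deviations from the group means, and not every library correlated best with its own number. With 3 libraries per group these values cannot show whether a number marks a shared animal or day.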
